A study of Rattus norvegicus with 18 samples.

Results

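Solute carriers are membrane proteins that move amino acids, sugars, ions, metals, nucleosides, vitamins and organic ions across membranes down or against gradients, and each family is numbered by the SLC nomenclature. Carriers at the cell surface feed cells and set the composition of the airway and alveolar lining fluid, mitochondrial carriers exchange metabolites and nucleotides between mitochondria and cytosol, and carriers of the Golgi and endoplasmic reticulum supply nucleotide sugars for glycosylation. In the lung they include a cystine carrier that supplies glutathione synthesis, iron carriers of macrophages, and the serotonin carrier of capillary endothelium. The genes described here were all probe sets with 1 annotated symbol starting with Slc and a digit, apart from Slc26a4 and Slc34a2, which the rule leaves out. Of 289 such genes on the arrays, 191 were kept, and 98 were not.

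The 191 genes were chosen by their measured signal. A probe set was kept where its signal was 200 or more on at least 3 of the 9 arrays of its type, and each gene was represented by its brightest probe set on average. The same filter kept 20015 probe sets in all, of which those with 1 symbol covered 10123 genes. Among the 191 genes, 124 lay on array type A and 67 on type B, 148 had 1 probe set past the filter and 43 had several. The genes nearest the threshold on the inside were Slc23a1, Slc4a1 and Slc7a5, with third-highest signals of 200.9, 206.9 and 207.7. Those nearest on the outside were Slc28a3, Slc10a4 and Slc6a3, at 197.9, 197.8 and 197.4. At or above 200 on all 9 arrays were 156 genes, and 35 were on some of them. No gene was kept through 1 exposure or 1 recovery time alone, and 4 genes (Slc12a5, Slc2a8, Slc47a1 and Slc7a5) were kept through smoke arrays only, so that the rule itself favoured higher values in smoke for these. Slc38a9 and Slc5a11 reached 200 on every 600 µg/l array and otherwise only on the sham array at 6 h and at 2 h, respectively. For both, the rule favoured higher values at 600 µg/l. Another 5 (Slc18a2, Slc20a2, Slc45a3, Slc5a1 and Slc6a7) reached 200 on no 600 µg/l array, and for them the rule favoured lower values there. Of the 98 genes not kept, 87 were under 200 on every array, 5 reached it on 1 array and 6 on 2, with a highest single signal of 341.7.

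The samples were lungs of male Sprague-Dawley rats exposed for 13 weeks, on 5 days a week and for 2 h a day, to sham air or to mainstream smoke of the reference cigarette 2R4F at 300 or 600 µg TPM/l (total particulate matter per litre). Exposure was nose-only, and the recovery time before dissection was 2, 6 or 20 h, which gives 9 conditions, each with 1 array on each of 2 Affymetrix array types, 18 arrays in all. The labels do not give the number of animals behind an array, and no condition has a replicate, so the 3 recovery times of an exposure stand in for replicates, as do the 3 exposures of a recovery time, and p-values measure the spread between these arrays only. For 4 smoke samples at 20 h, a further label reads sham while the title and the source name give the smoke exposure, and the title was followed.

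The median signal of an array was between 263.6 and 278.5 on type A, and between 315.3 and 338.7 on type B. The summed signal of alveolar type 2 markers on type A was 64285 to 71315 in sham, 66382 to 70606 at 300 µg/l and 68044 to 73536 at 600 µg/l, and all 10 listed markers passed the filter, as lung tissue should show. The 7 macrophage markers on type A summed to 31590 to 35444 in sham, 42185 to 45741 at 300 µg/l and 45830 to 51570 at 600 µg/l. Of 11 measured, 5 rose at 600 µg/l (limma, adjusted p under 0.05) and none fell. The changes of Adgre1, Cd163 and Csf1r were -0.4, -0.16 and -0.11, and that of Lyz2 was 0.03. Neutrophil markers summed to 1371 to 2052, 2910 to 3760 and 3731 to 8103. Most of that sum was S100a9, at 694.7 to 1033.4 in sham and 2976.4 to 6636.4 at 600 µg/l. Of 8 neutrophil markers on the arrays, 4 were under 200 everywhere, 3 passed the filter and only S100a9 rose at 600 µg/l. T and NK cell markers summed to 2826 to 3310, 2429 to 2934 and 2030 to 2384. The part of these markers in the results below was not tested. On type B, 1 pair of arrays was unlike the other 35, that of sham and 300 µg/l at 2 h. Their deviations from the mean of all arrays of the type had a correlation of 0.54, against 0.1 or less in each other pair. Exposure and time were not removed first, so differences shared by arrays at 2 h can be part of this value. The value does not show which of the paired arrays is the odd one. Since sham is the baseline, type B members described singly in a comparison are given without the sham 2 h array as well, and the differences of smoke effects from 2 h cannot be fitted on type B without it.

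Signal strength differs between probe sets for reasons other than transcript number, and the 100 probe sets present on both types read 2.78-fold higher on type B (median, range 2.0 to 3.98), so signals describe probe sets and do not rank genes. The brightest members were Slc25a5, with a mean signal of 5294.3, Slc25a3 with 4165.3, Slc25a46 with 3411.6, Slc25a24 with 3190.6 and Slc24a4 with 2658.0. The first 4 belong by name to the mitochondrial carrier family Slc25, among them carriers of adenine nucleotides and of phosphate, and Slc24a4 is a potassium-dependent sodium-calcium exchanger. The dimmest were Slc39a5 with 158.5, Slc6a7 with 178.7, Slc38a9 with 184.9, Slc23a1 with 185.6 and Slc2a8 with 186.2. Over the 9 conditions, 170 of 191 genes had a highest signal under 2 times the lowest, and 8 had one of 3 or more times. Of those 8, 7 lay on type B, namely Slc47a1 (14.7), Slc39a5 (5.54), Slc25a23 (5.27), Slc34a3 (3.97), Slc2a9 (3.59), Slc10a7 (3.35) and Slc18a2 (3.29), and Slc13a2 on type A had 3.12.

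At 600 µg/l, 1 of the 191 genes passed the test: Slc6a20a, a sodium-dependent carrier of proline and other imino acids, rose. Its signals were 242.3, 339.5 and 253.9 in sham (at 2, 6 and 20 h, the order used throughout), 480.8, 359.5 and 344.5 at 300 µg/l, and 515.3, 506.2 and 521.5 at 600 µg/l. All 3 arrays at 600 µg/l lay above all others, and the 300 µg/l arrays lay between them and sham at every recovery time. The change at 600 µg/l was 0.79 on the scale of log2(signal + 50), with an SE of 0.14, a 95% interval of 0.48 to 1.10 and an adjusted p of 0.0448 (limma), a fold of 1.73. At 300 µg/l the difference was 0.44 (SE 0.14, adjusted p = 0.733), and between 600 and 300 µg/l it was 0.36 (SE 0.14, adjusted p = 0.94). The other probe set of the gene, with a mean signal of 277.4, gave 0.23 at 600 µg/l (SE 0.15, adjusted p = 0.683). The call was lost in 12 of 20 alternatives, in which the change was 0.51 to 0.84. Among them were the fits without the 20 h conditions, which hold the samples with conflicting labels (0.73, adjusted p = 0.259), and those without sham at 2 or 20 h, 300 µg/l at 6 or 20 h, or any 1 of the 600 µg/l conditions. Because the tissue is whole lung, a change in the number of cells of a type and a change of RNA per cell cannot be told apart.

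Among the other members, those whose values followed Slc6a20a most closely over the 9 conditions were Slc7a5 (Pearson r = 0.94), a carrier of large neutral amino acids, Slc11a2 (0.93), an iron carrier, and Slc31a1 (0.91), a copper importer. All are on type A, so the points share their arrays. Slc7a5 was kept through smoke arrays only, so the rule itself favoured its likeness to a gene that was higher in smoke. The 250 bases before the RefSeq start site of these 4 genes are shown to let the members that moved alike be compared, in build GRCr8 and read 5′ to 3′ on the strand of the gene. Capitals mark a match on either strand to GCGTG, the core of the element bound by the aryl hydrocarbon receptor.
Slc6a20a, chr8:132199901-132200150, minus strand: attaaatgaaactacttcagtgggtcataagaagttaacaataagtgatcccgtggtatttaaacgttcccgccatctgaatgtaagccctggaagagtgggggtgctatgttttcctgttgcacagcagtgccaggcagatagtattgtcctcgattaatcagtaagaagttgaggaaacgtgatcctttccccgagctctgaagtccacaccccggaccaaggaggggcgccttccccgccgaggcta
Slc7a5, chr19:66872413-66872662, minus strand: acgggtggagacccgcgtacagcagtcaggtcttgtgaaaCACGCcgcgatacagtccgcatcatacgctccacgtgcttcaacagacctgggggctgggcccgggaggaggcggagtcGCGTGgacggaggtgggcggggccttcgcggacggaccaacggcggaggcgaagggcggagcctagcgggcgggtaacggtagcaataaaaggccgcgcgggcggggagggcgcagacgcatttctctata
Slc11a2, chr7:133417789-133418038, minus strand: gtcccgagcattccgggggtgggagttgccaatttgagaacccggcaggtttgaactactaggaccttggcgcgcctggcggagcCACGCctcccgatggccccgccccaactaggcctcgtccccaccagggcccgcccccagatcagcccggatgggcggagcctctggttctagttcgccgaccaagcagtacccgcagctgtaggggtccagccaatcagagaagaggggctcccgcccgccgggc
Slc31a1, chr5:80830590-80830839, plus strand: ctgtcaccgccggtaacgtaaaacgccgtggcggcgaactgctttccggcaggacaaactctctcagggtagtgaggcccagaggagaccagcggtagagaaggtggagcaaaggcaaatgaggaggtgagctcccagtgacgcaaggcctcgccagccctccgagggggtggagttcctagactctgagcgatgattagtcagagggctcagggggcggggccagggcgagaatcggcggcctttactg
Slc7a5 holds 2 matches, Slc11a2 holds 1, and the windows of Slc6a20a and Slc31a1 hold none. Of the 159 members with an entry in the RefSeq table, 42.1% hold GCGTG in such a window, against 25.9% of all 33469 promoters and 30.6% of the 21851 of protein-coding genes. The members were chosen by signal and these 2 comparison sets were not, so the shares are not matched for expression and the difference was not tested. TGANNNNGC, the core of the antioxidant response element, is in 34.6% of the members and 34.7% of all promoters. TGATGNAA, a core of the element shared by C/EBP and ATF factors, is in 3.77% and 3.4%. None of these last 2 motifs is in the 4 windows shown, and the matches describe letters, not sites in use.

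**Figure D1:**
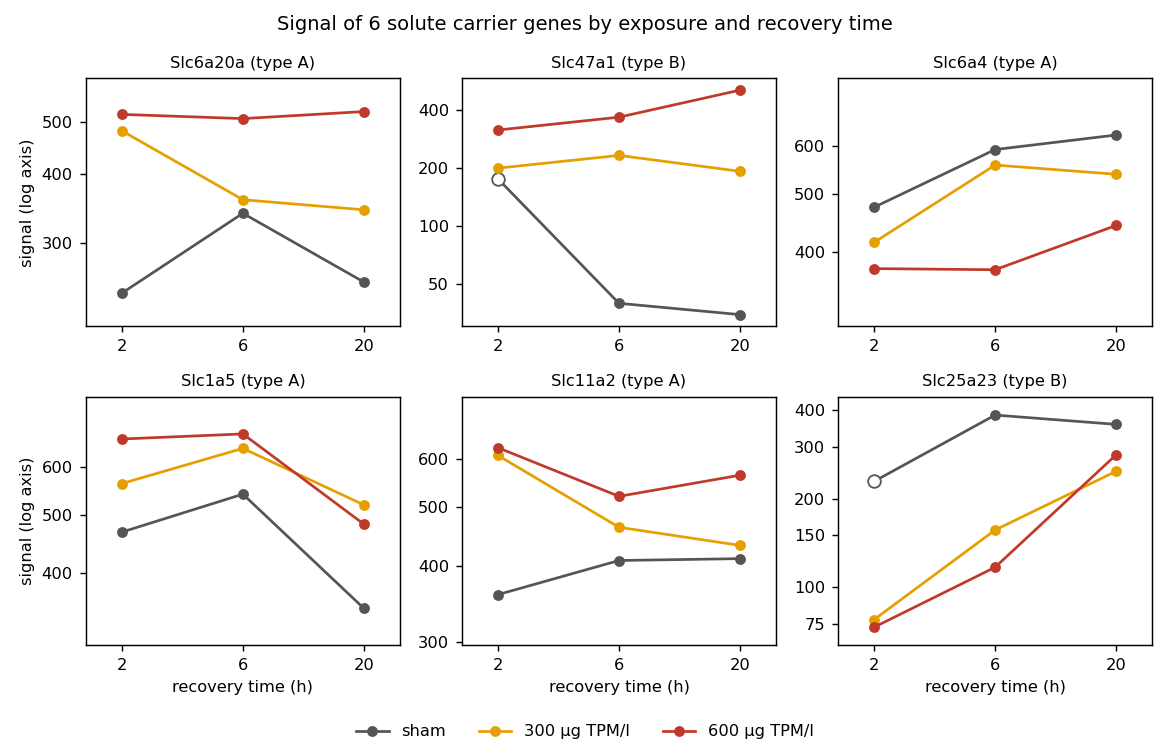
Signal (log axis) of 6 genes against recovery time in hours, with 1 array per point and lines joining the arrays of sham, 300 and 600 µg TPM/l; open circles mark the sham 2 h array of type B. Slc6a20a at 600 µg/l sits between 506.2 and 521.5, above all other arrays, while Slc6a4 at 600 µg/l sits between 374.6 and 443.1, below all sham arrays.

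Over all 191 genes the shifts at 600 µg/l were small, with a median of 0.07 on the log2 scale against -0.01 over all 20015 probe sets, and 125 members (65.4%) lay above 0 against 48.3% of all probe sets. The changes ran from -0.95 to 1.88, 183 of 191 lay within 0.5 of 0, and the median SE was 0.12. The adjusted test called 0.48% of all probe sets (96), so that 1 member of 191 (0.524%) is near the background. At an unadjusted p under 0.05, 24 members were higher (12.6%) against 5.28% of all probe sets, and 5 were lower (2.62%) against 5.02%. Of the 24, Slc47a1 and Slc7a5 were kept through smoke arrays only. The 3 arrays at 600 µg/l all lay above the 3 sham arrays in 22 members (11.5%), against 6.94% of all probe sets. Of these 22, 2 were genes kept through smoke arrays only. They lay below the sham arrays in 14 members (7.33%), against 7.28%, 3 of these 14 being genes with no 600 µg/l array at 200. The members are named genes with 1 probe set each, while the background holds unnamed probe sets too, and these shares describe the lists without a test. Slc38a9 and Slc5a11, for which the rule also favoured higher values at 600 µg/l, were not counted apart.

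**Figure D2:**
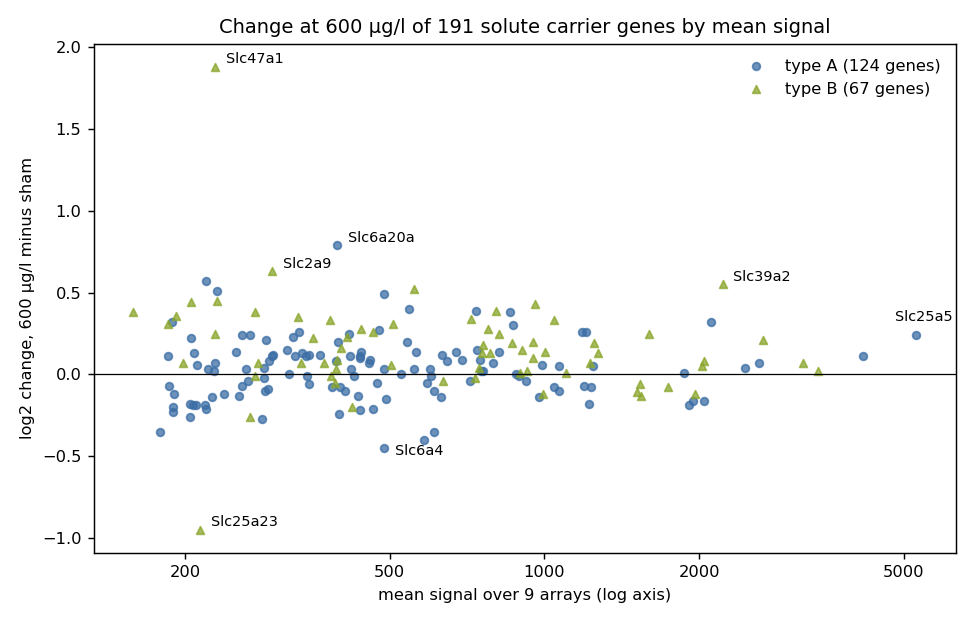
Log2 change at 600 µg/l against sham for 191 solute carrier genes, plotted against the mean signal over 9 arrays (log axis), with circles for the 124 genes of array type A and triangles for the 67 of type B. Nearly all points lie within 0.5 of 0, and Slc47a1 at 1.88 and Slc25a23 at -0.95 are the farthest.

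Members were grouped by family number alone, so a group can hold genes with another role. The amino acid carrier families, which take in Slc6a4 and Slc7a6os by number, were the largest group. Of their 54 genes 32 were kept, with a median change of 0.07 at 600 µg/l, 1 gene that rose and none that fell. At an unadjusted p under 0.05, 5 were higher and 3 lower, against 5.28% and 5.02% of all probe sets. Slc6a4, the serotonin carrier through which the lung clears serotonin from blood, had signals of 474.7, 590.9 and 624.4 in sham, 415.5, 557.2 and 538.0 at 300 µg/l, and 376.2, 374.6 and 443.1 at 600 µg/l. Its 600 µg/l arrays all lay under the sham arrays, with a change of -0.45 (SE 0.10, 95% interval -0.66 to -0.23) that did not pass adjustment (adjusted p = 0.102, limma). Endothelial markers summed to 23858 to 26619 in sham and 22605 to 24335 at 600 µg/l, with none of 9 past the adjusted test and 3 lower at an unadjusted p under 0.05, and their part was not tested. The members most like Slc6a4 over the 9 conditions were Slc25a39 (r = 0.88), Slc25a23 (0.79) and Slc25a17 (0.78), all from the 29 mitochondrial carriers kept. The other probe set of Slc25a39 had the opposite sign at 600 µg/l (0.25).

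Slc1a5, a carrier of glutamine and other neutral amino acids, read 467.7, 540.4 and 349.8 in sham, 562.7, 643.3 and 518.7 at 300 µg/l and 666.7, 679.7 and 482.0 at 600 µg/l. It was higher than sham in both smoke groups at each recovery time, although the ranges overlapped because all 3 groups were lowest at 20 h. The change was 0.40 (SE 0.09, adjusted p = 0.143, limma). Slc6a6, the taurine carrier, read 1727.7, 1994.5 and 1795.8 in sham, 2070.5, 2279.0 and 2189.5 at 300 µg/l, and 2442.6, 2169.7 and 2316.3 at 600 µg/l. No sham array reached a smoke array, its change was 0.32 (SE 0.08, adjusted p = 0.192), and its other probe set gave 0.29 (SE 0.13). Slc38a5, a glutamine carrier, lay lower on all 3 arrays at 600 µg/l (mean 493.4) than in sham (mean 665.5), with a change of -0.40 (SE 0.12, adjusted p = 0.268).

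The cystine carrier of the lung consists of Slc7a11 and the heavy chain Slc3a2, and Slc7a11 is a known target of the oxidative stress factor NRF2. Slc7a11 read 358.0, 317.8 and 349.5 in sham, 344.8, 344.9 and 303.5 at 300 µg/l, and 752.1, 330.3 and 341.2 at 600 µg/l. The 600 µg/l array at 2 h stood alone, and the other 8 lay within 303.5 to 358.0. The change over the 3 recovery times was 0.33 (SE 0.21, adjusted p = 0.663, limma), and 0.17 without the sham 2 h array of type B. Slc3a2 differed by 0.07 (SE 0.07). Slc7a5, which pairs with the same heavy chain, differed by 0.32 (SE 0.14, adjusted p = 0.47), and its signals of 135.8 to 225.2 lie about the threshold of the rule. The brain-type carrier Slc7a10 differed by -0.21 (SE 0.09). Slc6a7, a brain-type proline carrier, differed by -0.35 (SE 0.16), but was kept through sham and 300 µg/l arrays only, and Slc7a6os, which the rule takes in by name and which lies opposite the carrier gene Slc7a6, by -0.24 (SE 0.11).

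Among 11 carriers of organic cations, organic anions, bile acids and drugs, none passed the test, with a median of 0.07. Slc47a1, an exporter of organic cations in exchange for protons, was kept through smoke arrays alone, so the rule favoured a higher value in smoke and its values are a description. It read 175.1, 39.5 and 34.5 in sham, 199.0, 231.8 and 191.6 at 300 µg/l and 314.1, 366.2 and 506.2 at 600 µg/l, and the 3 groups did not overlap. The difference at 600 µg/l was 1.88 (SE 0.36) with the pseudocount of 50, 2.38 with a lower one and 1.1 with one of 200, so that no exact fold is given against sham signals this low. At 300 µg/l it was 1.11 (SE 0.36). The fit over all probe sets gave an adjusted p of 0.0641 at 600 µg/l, and 0.0068 without the sham 2 h array of type B, where the difference was 2.41 (limma). Since the rule used these smoke values, neither p is support. Its values followed those of Slc31a2 (r = 0.90), Slc25a5 (0.89) and Slc16a3 (0.88) over the conditions.

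Of 7 carriers of iron, copper, magnesium and heme, none passed the adjusted test, 3 were higher at an unadjusted p under 0.05 (against 5.28% of all probe sets) and the median was 0.20. Slc11a2, which carries ferrous iron into cells and out of endosomes, read 359.1, 408.7 and 411.6 in sham, 608.8, 463.6 and 432.8 at 300 µg/l and 626.9, 521.3 and 564.8 at 600 µg/l. Every smoke array lay above every sham array, with a change of 0.49 (SE 0.12, adjusted p = 0.165, limma), while its other probe set gave -0.07 (SE 0.12). The copper carriers Slc31a1 and Slc31a2 differed by 0.20 (SE 0.08) and 0.43 (SE 0.14), the latter also by 0.43 with its other probe set and by 0.58 without the sham 2 h array of type B. The iron exporter Slc40a1 differed by 0.08 (SE 0.12), or -0.03 with its other probe set, and the heme carrier Slc48a1 by 0.02 (SE 0.10), and the sign of both turned in some fits that left out 1 condition.

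Of 18 zinc and manganese carriers, none passed, 3 were higher at an unadjusted p under 0.05 (against the same 5.28%) and the median was 0.13. Slc39a2, a zinc importer, read 1915.8, 1509.4 and 1845.7 in sham, 1833.0, 2626.8 and 2419.9 at 300 µg/l, and 2648.3, 2098.2 and 3094.5 at 600 µg/l. Its 600 µg/l arrays lay above sham, with a change of 0.55 (SE 0.16, adjusted p = 0.252, limma), and 0.68 without the array labelled sham at 2 h. Slc39a8, an importer of zinc, manganese and cadmium, had no overlap of sham with either smoke group, and its change was 0.38 (SE 0.12, adjusted p = 0.273). Slc39a14, a zinc, manganese and iron importer, differed by 0.28 (SE 0.16), by 0.41 without the sham 2 h array of type B and by -0.04 (SE 0.10) with its other probe set. Also measured were the zinc exporter Slc30a1, which differed by 0.12 (SE 0.14), and the Golgi zinc carrier Slc30a5, by -0.22 (SE 0.10).

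Mitochondrial carriers, 29 of 38 genes kept, had a median of 0.07, with none called. At an unadjusted p under 0.05, 4 of them were higher and 1 lower, against 5.28% and 5.02% of all probe sets. Slc25a5, an exchanger of ADP and ATP, had the brightest probe set. It read 4896.3, 4831.9 and 4774.2 in sham, 5172.0, 5673.3 and 5196.9 at 300 µg/l, and 5646.0, 5676.8 and 5781.4 at 600 µg/l. Sham did not overlap either smoke group, and the change was 0.24 (SE 0.06, adjusted p = 0.18, limma). The gene has near-identical relatives that its probes may share. Slc25a23, an exchanger of ATP-magnesium and phosphate, read 228.9, 385.0 and 357.9 in sham, 77.5, 156.4 and 247.9 at 300 µg/l, and 73.0, 116.8 and 282.0 at 600 µg/l. It was lower in smoke at every recovery time, least so at 20 h, with a change of -0.95 (SE 0.26, adjusted p = 0.203), and of -0.84 without the array labelled sham at 2 h. Over the 20 alternatives the change ran from -1.28 to -0.58, so with signals this low its size is uncertain. Slc25a39, which carries glutathione into mitochondria, differed by -0.18 (SE 0.10), and by 0.25 (SE 0.17) with its other probe set.

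Other carriers gave the following. Slc44a4, a choline-like carrier of thiamine pyrophosphate, read 666.5, 571.7 and 597.5 in sham, 810.6, 782.8 and 744.6 at 300 µg/l and 837.2, 926.6 and 692.9 at 600 µg/l. All smoke arrays lay above all sham arrays, with a change of 0.39 (SE 0.10, adjusted p = 0.18, limma). Slc16a6, of the monocarboxylate family, was higher at 600 µg/l on all 3 arrays, with signals of 290.4, 313.7 and 266.2 against 220.7, 155.0 and 196.6 in sham, a change of 0.51 (SE 0.13, adjusted p = 0.19). Its other probe set gave 0.17. The lactate carriers Slc16a1 and Slc16a3 differed by 0.20 (SE 0.13) and 0.21 (SE 0.10), and the glucose carrier Slc2a1 by 0.27 (SE 0.14). The phosphate importer Slc20a1 differed by 0.26 (SE 0.08, adjusted p = 0.265). The nucleoside carrier Slc29a1 differed by -0.16 (SE 0.09), the peptide carrier Slc15a3 by 0.14 (SE 0.13) and the vitamin C carrier Slc23a2 by -0.01 (SE 0.12), whose other probe set gave 0.39 (SE 0.11, adjusted p = 0.214).

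Of 14 carriers of sodium, protons, potassium, chloride and calcium none passed the test, and the median was -0.04. At an unadjusted p under 0.05, 1 was higher and 1 lower, against 5.28% and 5.02% of all probe sets. The calcium exchanger Slc24a3 read 541.1, 517.2 and 832.3 in sham, 744.4, 599.4 and 826.7 at 300 µg/l and 489.7, 423.4 and 514.5 at 600 µg/l. The 600 µg/l arrays were the lowest at each recovery time, with a change of -0.35 against sham (SE 0.11, adjusted p = 0.284, limma) and of -0.55 against 300 µg/l (SE 0.11, adjusted p = 0.634). Its other probe set gave -0.23 and -0.11 (SE 0.13 each). The chloride importer Slc12a2, which drives chloride secretion in epithelia, differed by -0.19 (SE 0.09). The anion exchanger Slc4a1 of red cells differed by -0.23 (SE 0.13). The 3 erythroid markers on type A summed to 16976 to 19630 in sham and 15618 to 15877 at 600 µg/l, and their part was not tested. Of 5 erythroid markers on the arrays, 3 were under 200 everywhere and only 2 passed the filter. Among 19 carriers of nucleotide sugars and acetyl-CoA no gene passed even an unadjusted p of 0.05, and their changes lay between -0.26 and 0.15, with a median of -0.04. The 8 members of the bicarbonate and anion exchanger families, which take in Slc4a1ap by name, and the 3 of the fatty acid carrier family Slc27 likewise had none.

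**Figure D3:**
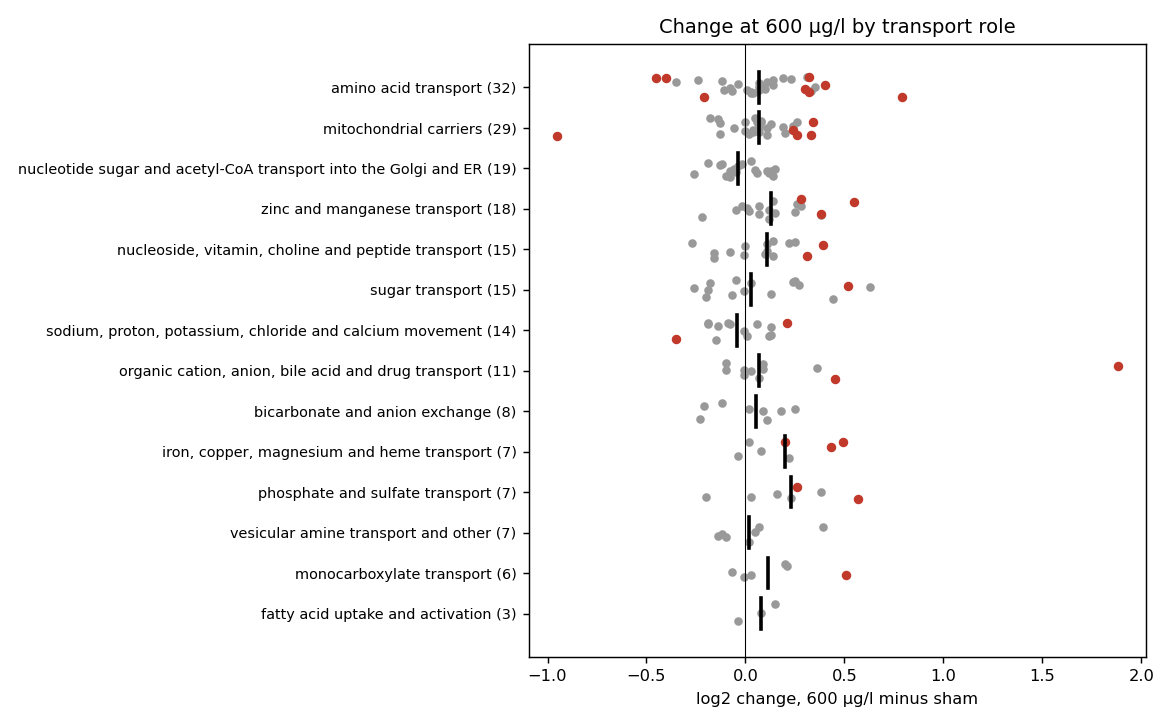
Log2 change at 600 µg/l against sham for each of 191 genes (points), grouped by transport role with the number of genes in brackets; red points have an unadjusted p under 0.05, grey points do not, and black bars are group medians. Role medians lie between -0.04 and 0.23, and single genes such as Slc47a1 and Slc25a23 stand far from their groups.

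At 300 µg/l no member passed the test, against 0.045% of all probe sets, and 16 members were higher (8.38%) and 2 lower at an unadjusted p under 0.05 (limma), against 2.79% and 2.62% of all probe sets. The median was 0.04 against 0 over all probe sets, and 113 of 191 (59.2%) lay above 0 against 49.3%. All 3 arrays at 300 µg/l lay above sham in 16 members, against 4.04% of all probe sets, and below it in 5 (2.62%), against 4.23%. The 5 members with the smallest p were Slc1a5 (0.33, SE 0.09, adjusted p = 0.657), Slc25a23 (-0.89), Slc44a4 (0.33), Slc6a20a (0.44) and Slc47a1 (1.11). Without the sham 2 h array of type B, Slc25a23 gave -0.77 and Slc47a1 1.64. Slc47a1 was kept through smoke arrays only, so its values and its place by p are a description and not support. It is in both sets of 16 higher members, and the other genes kept through smoke arrays only were not counted apart there. These shares therefore describe the list without a test. Both smoke groups were compared with the same sham arrays.

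Between 600 and 300 µg/l no member passed, against 0.02% of all probe sets, and 6 were higher and 2 lower at an unadjusted p under 0.05 (limma), against 2.65% and 2.49%. After Slc24a3, the members with the smallest p were Slc6a4 (-0.30, SE 0.10), Slc25a13 (0.37, SE 0.12), Slc16a6 (0.39, SE 0.13) and Slc6a20a (0.36). Slc25a13, the mitochondrial aspartate-glutamate carrier, gave 0.37 without the sham 2 h array of type B too, and 0.16 (SE 0.14) with its other probe set. Over any difference among the 3 exposures, no member passed, against 0.21% of all probe sets, and 18 did so at an unadjusted p (9.42%), against 7.57%. The smallest adjusted p were 0.133 for Slc6a20a, 0.183 for Slc47a1, 0.199 for Slc24a3, 0.266 for Slc6a4 and 0.297 for Slc1a5, and that of Slc47a1, kept through smoke arrays only, was 0.0232 without the sham 2 h array of type B.

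Recovery time gave no call among the members (limma). At 6 h against 2 h, 0 members were called against 0.015% of all probe sets, with 11 higher and 12 lower at an unadjusted p under 0.05, against 5.43% and 5.35%. At 20 h against 2 h the background was 0.05%, and 8 members were higher (4.19%) and 17 lower (8.9%), against 5.76% and 5.78%. At 20 h against 6 h the background was 0%, with 5 members higher and 5 lower (2.62% each), against 2.26% and 2.23%. The medians were -0.04, -0.03 and 0.

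Slc38a2, a glutamine carrier that amino acid shortage is known to induce, was highest at 2 h in each exposure. It read 856.0, 801.7 and 660.4 in sham, 1146.3, 764.0 and 698.6 at 300 µg/l, and 1219.2, 877.3 and 812.2 at 600 µg/l. The 3 arrays at 20 h did not overlap those at 2 h, with a change of -0.53 (SE 0.10, adjusted p = 0.115, limma), and of -0.37 at 6 h. Slc6a14, a carrier of neutral and basic amino acids of airway epithelium, ran the other way. It read 1269.3, 1694.4 and 1818.5 in sham, 1226.2, 1501.7 and 1697.7 at 300 µg/l, and 1122.4, 1728.7 and 1581.4 at 600 µg/l, so that every 2 h array lay below every later one. Its changes were 0.43 at 6 h (SE 0.10, adjusted p = 0.207) and 0.48 at 20 h (SE 0.10, adjusted p = 0.153), and were the same without the sham 2 h array of type B, with adjusted p of 0.518 and 0.411.

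Slc25a23 was higher at 20 h than at 2 h by 1.07 (SE 0.26, adjusted p = 0.181, limma), by 1.19 without that array, and by 0.63 to 1.34 over the alternatives. The phosphate carrier Slc17a4 was lower at 20 h by a change of -0.51 (SE 0.13, adjusted p = 0.197), and of -0.52 without that array, with signals of 472.0, 495.4 and 534.9 at 2 h and 320.2, 315.7 and 374.3 at 20 h for sham, 300 and 600 µg/l. The zinc carrier Slc30a3 differed by -0.34 (SE 0.09). At 6 h, Slc35e4 differed by -0.38 (SE 0.09), the bicarbonate exchanger Slc4a2 by 0.29 (SE 0.08) and the sodium-proton exchanger Slc9a9 by -0.49 (SE 0.15), or by -0.34 without the array labelled sham at 2 h. From 6 to 20 h the members with the smallest p were Slc1a5 (-0.43), the neutral amino acid carrier Slc7a8 (0.48), Slc24a3 (0.44), Slc4a2 (-0.21) and Slc29a3 (-0.31), all with adjusted p of 0.999 or above.

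**Figure D4:**
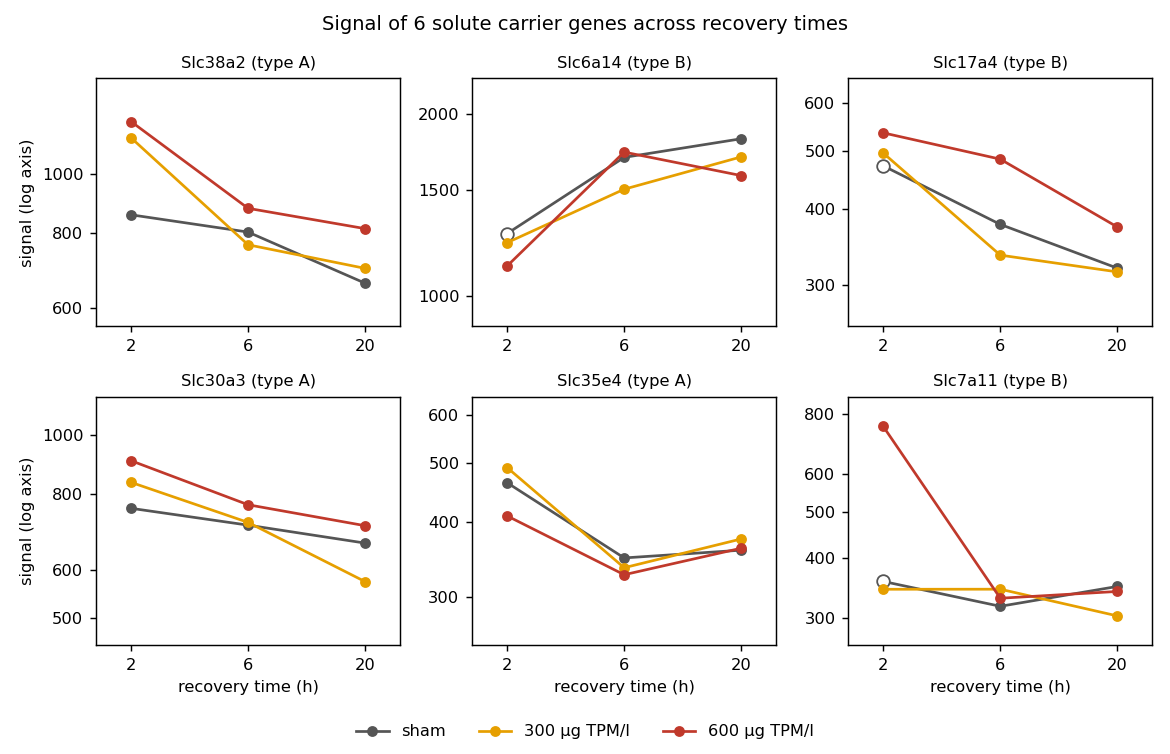
Signal (log axis) of 6 genes against recovery time in hours, with 1 array per point and lines joining the arrays of sham, 300 and 600 µg TPM/l; open circles mark the sham 2 h array of type B. Slc38a2 is highest and Slc6a14 lowest at 2 h in each exposure, and Slc7a11 reads 752.1 at 600 µg/l and 2 h against 303.5 to 358.0 elsewhere.

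Whether the effect of smoke (both levels together) differed with recovery time was tested in a second model, whose spread is that between 300 and 600 µg/l and holds no measured variation of sham arrays. At 6 h against 2 h no member passed (limma), against 0% of all probe sets, and at an unadjusted p under 0.05 the signed difference of the smoke effects was above 0 in 11 members (5.76%) and below 0 in 1, against 3.71% and 2.52%. The smallest p were those of the peptide carrier Slc15a2 (0.80, SE 0.21, adjusted p = 0.6), the lysosomal amino acid carrier Slc66a1 (1.5, SE 0.44) and the dicarboxylate carrier Slc13a2 (1.08, SE 0.32). Each had a sham array at 2 h well above the sham array at 6 h, at 421.7 against 244.8 for Slc15a2, 1056.6 against 360.8 for Slc66a1 and 255.8 against 93.8 for Slc13a2. The log2 difference of smoke from sham went from -0.67 at 2 h to 0.13 at 6 h for Slc15a2, from -0.22 to 1.29 for Slc66a1 and from -0.09 to 0.99 for Slc13a2, so the sign of the smoke difference turned in each. At 20 h against 2 h no member passed, against 0.00999% of all probe sets, and the difference was above 0 in 5 and below 0 in 2, against 1.91% and 1.56%. The smallest p were those of Slc3a1 (0.88), the heavy chain of the renal cystine carrier, Slc9a9 (0.68) and the neutral amino acid carrier Slc43a2 (0.68), all with an adjusted p of 1. Slc66a1, Slc9a9 and Slc43a2 are on type B, where the sham 2 h array is the only 2 h sham value. The other probe set of Slc43a2 gave -0.07.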

How the data were processed

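Biotin-labelled cRNA from lung total RNA was hybridised to Affymetrix arrays, per the labels. The authors deposited signal intensity on a linear scale, for which the submitters' processing notes name MAS5. It is scaled to a common trimmed mean and was used as given. Gene symbols came from a platform table with old names replaced by way of Entrez numbers. It gave 1 symbol for 12789 of the 15923 type A probe sets, several for 312 and no entry for 2822. For the 15333 of type B these were 7570, 100 and 7663. Controls (57 per type) were not used. The 100 shared ones were tested on A.

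Values were analysed as log2(signal + 50), computed from the deposited intensity, in R 4.3.3 with limma 3.58.1 (lmFit, then eBayes with its trend option) for each array type, with exposure and recovery time as terms and 4 residual degrees of freedom. The second model, with smoke, time and their interaction, had 3. Tests were two-sided, with Benjamini-Hochberg adjustment over both types and a threshold of 0.05. Folds are on this scale, so those of dim genes are understated. The procedure was tested on simulated data. The number of arrays limits the precision.

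Members and lists were chosen with earlier results of these data known. Named genes were every call, up to 10 per direction by p at 600 µg/l, the 3 to 5 with the smallest p in comparisons without a call, a list of known carriers, the brightest and dimmest 5 and those nearest the threshold. Slc11a1 of that list had no value here. Some genes were added after their values were seen: those with highest over lowest of 3 or more, and Slc38a2 and Slc31a2. Alternatives changed normalization, pseudocount, filter, trend, adjustment, probe set rule and arrays.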

Additional observations from a re-analysis of the deposited data

How the results depend on the processing

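With 1 array per condition and type, leaving out a condition removes 1 array from each type. At 600 µg/l against sham the count of members called was 1 and became 0 with no filter, with no intensity trend, with the mean of a gene's probe sets, without the 20 h conditions and with only the 2 exposures compared. It was 2 without the sham 2 h array of type B (Slc6a20a and Slc47a1, the latter kept through smoke arrays only), and 0 to 1 when each condition was left out in turn. For any exposure the count of 0 became 1 without that type B array, and was 0 to 1 with conditions left out. Counts of the other comparisons stayed at 0 in each alternative run. Slc6a20a passed in 8 of 20 alternatives, with changes of 0.51 to 0.95 and adjusted p of 0.0229 to 0.259, and Slc47a1 in 2 of 20, with 1.1 to 2.41 and adjusted p of 0.0068 to 0.352. Of 72 named results, 68 kept their direction in each alternative. The sign turned for Slc40a1 (-0.06 to 0.17 with conditions left out), Slc48a1 (-0.06 to 0.13), Slc15a3 (-0.04 to 0.25) and Slc23a2 (-0.14 to 0.15, and 0.19 with the mean of its probe sets), none of them called. The cause was not tested. Recovery time was a term of the fit, so exposures were compared within matched times, and the labels give no replicate numbers to pair arrays by.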

Other observations

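Other transport genes gave 1 call at 600 µg/l. Atp1b1, the beta subunit of the sodium pump that drives fluid out of the alveoli, read 2887.3, 2746.2 and 2747.4 in sham, 3700.5, 2975.8 and 3122.7 at 300 µg/l, and 5303.4, 3536.5 and 4078.5 at 600 µg/l. All smoke arrays lay above sham, and at 600 µg/l it rose by 0.60 on the log2 scale (SE 0.09, adjusted p = 0.0223, limma). In its list of 17 measured genes for the sodium pump, sodium channel and fluid transport, 6 were higher and 3 lower at an unadjusted p under 0.05, against 5.28% and 5.02% of all probe sets, with a median of 0.05. The chloride channel Cftr read 431.7, 337.3 and 390.2 in sham and 512.6, 656.4 and 724.2 at 600 µg/l, a change of 0.64 (SE 0.19, adjusted p = 0.264), and of 0.76 without the sham 2 h array of type B.

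Of 22 ABC transporters past the filter, none passed the test, 3 were higher and 1 lower at an unadjusted p under 0.05 (limma, against the same shares), and the median was 0.06. The cholesterol exporter Abcg1 differed by 0.35 (SE 0.08, adjusted p = 0.119). Of 6 organic anion transporters of the Slco family past the filter, of 13 listed, none passed at an unadjusted p, and their median was -0.10.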
